A study of Mus musculus with 2 samples.

Results

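The BCL2 family and apoptosis regulators described here are 10 genes, chosen by symbol from the 32285 genes listed in each library: Mcl1, Bcl2l1, Bak1, Bok, Bid, Bad, Bbc3, Bcl2l11, Pmaip1 and Xiap. All 10 had counts in both libraries. The libraries came from E14 cells, a mouse embryonic stem cell line on a 129/Ola background, kept in serum with leukaemia inhibitory factor. One culture was transfected with control siRNA (small interfering RNA) and is called control, and the other with siRNA against Son and is called sonKD. Both transfections used Lipofectamine 2000, and both cultures were collected after 24 hours, frozen, thawed, sorted as viable by the dye 7-AAD and barcoded with 10x Genomics Single Cell 3' v3 chemistry. Each group is 1 library, so the siRNA, the culture and the library cannot be told apart, and no test of a difference between conditions was possible. Son encodes a nuclear speckle protein that takes part in splicing.

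The BCL2 family sets whether the outer mitochondrial membrane stays intact. Survival proteins such as MCL1 and BCL-XL (from Bcl2l1) hold the effectors BAK and BAX in check. BH3-only proteins (BID, BAD, PUMA from Bbc3, BIM from Bcl2l11, NOXA from Pmaip1) relieve that restraint or activate these effectors. BOK is grouped with the effectors here. Once the membrane is permeable, cytochrome c enters the cytosol and caspases are activated, a step that XIAP inhibits. Mouse embryonic stem cells are known to enter apoptosis readily and to depend on MCL1 and BCL-XL.

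The family is held together by the BH3 core, the short helix by which its members bind each other. Its coding sequence is shown because it is what places these genes in 1 family while their levels differ widely. The core was found by its amino acids, a leucine followed after 3 residues by glycine, alanine or serine and then aspartate. The residues around this pattern were not restricted. It occurred 1 time in each of 8 predicted proteins and 0 times in XIAP, which is no BCL2 family protein. Pmaip1 is not shown. The capitals mark the codons of the leucine and of the small residue with its aspartate, in 42 bases read 5' to 3' on the coding strand of GENCODE M21 transcripts on GRCm38 (mm10).
Mcl1, chr3:95659424-95659465, plus strand: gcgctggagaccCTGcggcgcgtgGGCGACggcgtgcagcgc
Bcl2l1, chr2:152829694-152829735, minus strand: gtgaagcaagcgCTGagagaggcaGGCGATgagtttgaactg
Bak1, chr17:27022528-27022569, minus strand: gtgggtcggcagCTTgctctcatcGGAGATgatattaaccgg
Bok, chr1:93686645-93689173, plus strand, across an intron: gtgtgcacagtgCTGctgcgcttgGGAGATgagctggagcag
Bid, chr6:120897286-120897327, minus strand: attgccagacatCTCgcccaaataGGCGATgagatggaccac
Bad, chr19:6950780-6950821, plus strand: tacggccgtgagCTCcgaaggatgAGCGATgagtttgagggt
Bbc3, chr7:16313761-16313802, plus strand: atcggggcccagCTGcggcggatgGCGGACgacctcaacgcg
Bcl2l11, chr2:128147138-128147179, plus strand: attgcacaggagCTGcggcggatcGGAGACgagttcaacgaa
The small residue is glycine in Mcl1, Bcl2l1, Bak1, Bok, Bid and Bcl2l11, alanine in Bbc3 and serine in Bad. All these stretches are coding exon sequence.

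Cells were barcodes with at least 2500 UMIs (unique molecular identifiers, each marking 1 captured RNA), at least 1000 genes and at most 10% UMIs of mitochondrially encoded genes (symbols starting mt-). There were 4978 in control (median 7737.5 UMIs) and 2731 in sonKD (median 11612 UMIs). Barcodes with at least 2500 UMIs and over 10% mt- UMIs, called high-mt barcodes, numbered 626 and 1058, or 11.2% (95% interval 10.4 to 12.02) and 27.9% (26.5 to 29.4) of barcodes at that depth. They were shallower, with medians of 2973 and 3140 UMIs. Whole libraries held 71046373 and 60352438 UMIs. All 10 embryonic stem cell markers had UMIs in both libraries, with summed levels of 9042 and 9853 CPM in cells and 7480 and 8739 CPM in high-mt barcodes. Marker lists of primitive endoderm, trophectoderm, fibroblast and mesoderm each summed to between 3.30 and 12.8 CPM in cells, with Elf5, Col3a1, Lum and Foxf1 at 0 in both libraries, and the neuroectoderm list to 57.5 and 54.3 CPM, led by Tubb3, with Neurog2 at 0. Son itself was at 175 CPM in control against 110 CPM in sonKD cells, a log2 ratio of -0.67 (-0.73 to -0.61), so its RNA was still present in the sonKD library. The libraries shared 2 cell barcodes and 0 high-mt barcodes.

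Levels are UMIs of a gene per 1000000 nuclear-encoded UMIs (CPM), summed over the barcodes of a set, with intervals at 95% that cover counting error only. A 3' library counts 1 end per captured RNA, so the levels are not divided by length, and isoforms such as the long and short forms of Mcl1 and Bcl2l1 are not told apart.

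Mcl1 was the leading survival gene and the most abundant of the 10, at 244 CPM (240 to 249; 9614 UMIs) in control cells and 218 CPM (212 to 223; 6677 UMIs) in sonKD cells. It alone gave 51.1% of the 10 genes' UMIs in control cells and 48.8% in sonKD cells. Bcl2l1 stood at 50.5 CPM (48.3 to 52.8) in control and 50.7 CPM (48.2 to 53.3) in sonKD cells, so Mcl1 exceeded it by 4.84 times (4.61 to 5.08) and 4.29 times (4.06 to 4.54). The 2 libraries did not overlap in their intervals for Mcl1 and overlapped fully for Bcl2l1.

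Bak1, which encodes a resident pore-forming effector of the outer membrane, was at 25.7 CPM (24.2 to 27.4) in control and 24.1 CPM (22.4 to 25.9) in sonKD cells. Bok, the less studied effector, was at 13.5 CPM (12.4 to 14.7) and 12.6 CPM (11.4 to 14.0). Both pairs of intervals overlapped. Bak1 lies wholly within Ggnbp1 on the opposite strand, and the use of strand in counting is not given in the sources used here, so reads of the pair may not be told apart.

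Among the BH3-only genes, Bid (cleaved by caspase-8 to link death receptors to mitochondria) and Bad (controlled by survival-factor signalling through phosphorylation) were the most abundant. Bid was at 30.8 CPM (29.1 to 32.6) in control and 28.4 CPM (26.5 to 30.3) in sonKD cells. Bad was at 29.3 CPM (27.7 to 31.1) and 29.7 CPM (27.8 to 31.7). Both genes overlap a neighbour on the opposite strand at their ends, Bid with Bcl2l13 over 913 bases and Bad with Gpr137 over 620 bases.

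Bbc3, a p53 target whose product PUMA binds all survival proteins, was at 17.4 CPM (16.1 to 18.7) in control and 19.6 CPM (18.1 to 21.3) in sonKD cells. Bcl2l11, whose product BIM is induced by loss of growth factors, was at 15.3 CPM (14.1 to 16.6) and 14.9 CPM (13.6 to 16.4). Pmaip1, a p53 target whose product NOXA binds MCL1, was the least abundant, at 3.51 CPM (2.95 to 4.14; 138 UMIs) and 4.01 CPM (3.33 to 4.78; 123 UMIs). Intervals of the 2 libraries overlapped for each of these 3 genes.

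Xiap, the caspase inhibitor, is an X-linked gene (GRCm38 chromosome X, 42059679 to 42109656). It was at 48.2 CPM (46.1 to 50.4) in control and 43.8 CPM (41.5 to 46.2) in sonKD cells. The order of the 10 levels in control cells was Mcl1, Bcl2l1, Xiap, Bid, Bad, Bak1, Bbc3, Bcl2l11, Bok and Pmaip1. The neighbours Bcl2l1 and Xiap (ratio 1.05, 0.98 to 1.12) and Bid and Bad (ratio 1.05, 0.97 to 1.14) did not differ beyond counting error there. In sonKD cells the order was the same but for Bad and Bid, which changed places within counting error (ratio 1.05, 0.95 to 1.15), and Bcl2l1 exceeded Xiap by 1.16 times (1.08 to 1.246).

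**Figure D1:**
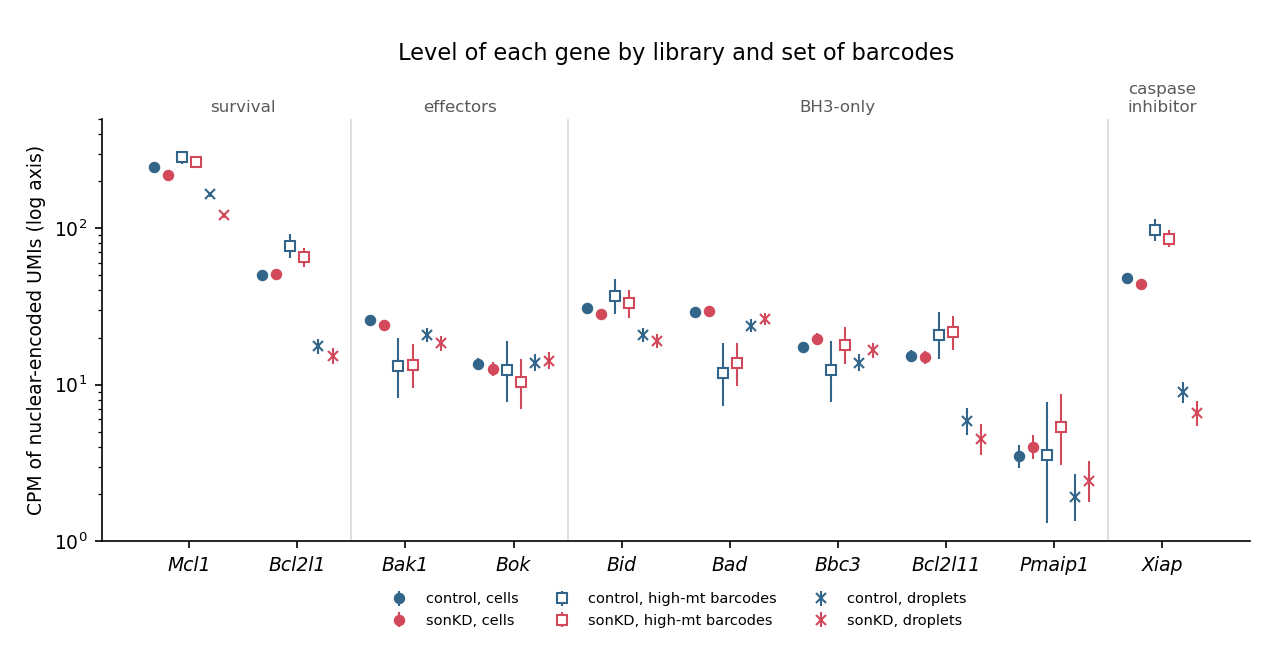
Level of each of the 10 genes in CPM of nuclear-encoded UMIs (log axis), for control (blue) and sonKD (red), in cells (filled circles), high-mt barcodes (open squares) and droplets with 100 to 500 UMIs (crosses); bars are exact Poisson 95% intervals of 1 library each. Mcl1 lies above the other genes in every set, from 121 to 283 CPM, and Xiap shows the widest gap between droplets (8.97 and 6.61 CPM) and cells (48.2 and 43.8 CPM).

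Droplets with 100 to 500 UMIs gave the level that free RNA could contribute. Their levels were below those of cells for most genes, with a median log2 ratio of -0.97 in control and -1.08 in sonKD. Xiap was the most depleted of the 10 there, with log2 ratios of -2.43 (-2.67 to -2.20) and -2.73 (-3.01 to -2.46). Bcl2l11 (5.83 and 4.49 CPM) and Bcl2l1 (17.5 and 15.3 CPM) also stood well below their level in cells. Bok was the only one of the 10 whose droplet level, 13.9 and 14.2 CPM, was above its level in cells in both libraries, with intervals of the ratio that included 0. On this scale its level in cells was not above the droplet level.

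The first comparison asked which of these genes differed between sonKD and control cells. A gene was past the fold at a log2 ratio of at least 0.32 in either direction, and 0 of the 10 genes were. Of the 8157 nuclear genes whose mean level in cells reached 10 CPM, 3.56% were higher and 9.64% lower by that fold, with a median log2 ratio of -0.11, and the median of the 10 was -0.07. Pmaip1 was under 10 CPM, and the other 9 passed that minimum.

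Mcl1 had the lowest ratio of the 10, -0.17 on the log2 scale (-0.21 to -0.12), or 0.89 times control. That value lay at the 35.7th percentile of all genes, so most genes had higher ratios, and it came to -0.06 after centring on the median gene. Xiap followed at -0.14 (-0.24 to -0.04), at the 42.7th percentile. Bid (-0.12), Bok (-0.10), Bak1 (-0.09) and Bcl2l11 (-0.04) had intervals that included 0, as had Bcl2l1 (0.00) and Bad (0.02).

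The highest ratios belonged to the 2 p53 targets among the 10. Bbc3 was at 0.18 (0.02 to 0.34), the 92.2th percentile of genes, and its interval excluded 0. Pmaip1 was at 0.19 (-0.17 to 0.55), the 92.7th percentile, on few counts. Both remained above 0 under each alternative that gave a value, from 0.14 to 0.29 for Bbc3 and from 0.13 to 0.30 for Pmaip1. Droplets of control and sonKD differed in the same direction for Mcl1 (165 and 121 CPM), Bbc3 (13.8 and 16.6 CPM) and Pmaip1 (1.93 and 2.44 CPM). For Bok and Bcl2l1 the droplets differed in the direction opposite to that in cells. The part of free RNA in the ratios of cells was not tested.

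The make-up of the 10 genes' UMIs does not depend on scaling. In cells, the survival pair gave 61.6% in control and 60.2% in sonKD, a difference of -1.39 points (-2.47 to -0.31). The 5 BH3-only genes gave 20.1% and 21.7%, a difference of 1.57 points (0.67 to 2.48). BH3-only over survival UMIs was thus higher in sonKD by 0.14 on the log2 scale (0.06 to 0.22). In CPM the BH3-only genes summed to 96.4 in control and 96.7 in sonKD, and the survival pair to 295 and 268. On that scale the difference lay in the survival pair, mostly in Mcl1 (244 and 218 CPM). In droplets the BH3-only over survival ratio differed in the same direction by more, 0.48 (0.34 to 0.61). BH3-only shares there were 22.6% and 28.2%, and survival shares 62.4% and 55.8%. The part of free RNA in the difference between cells was not tested. The spread of this ratio between cultures was not measured. The effectors gave 8.20% and 8.26%, and Xiap 10.1% and 9.82%, with differences whose intervals included 0.

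**Figure D2:**
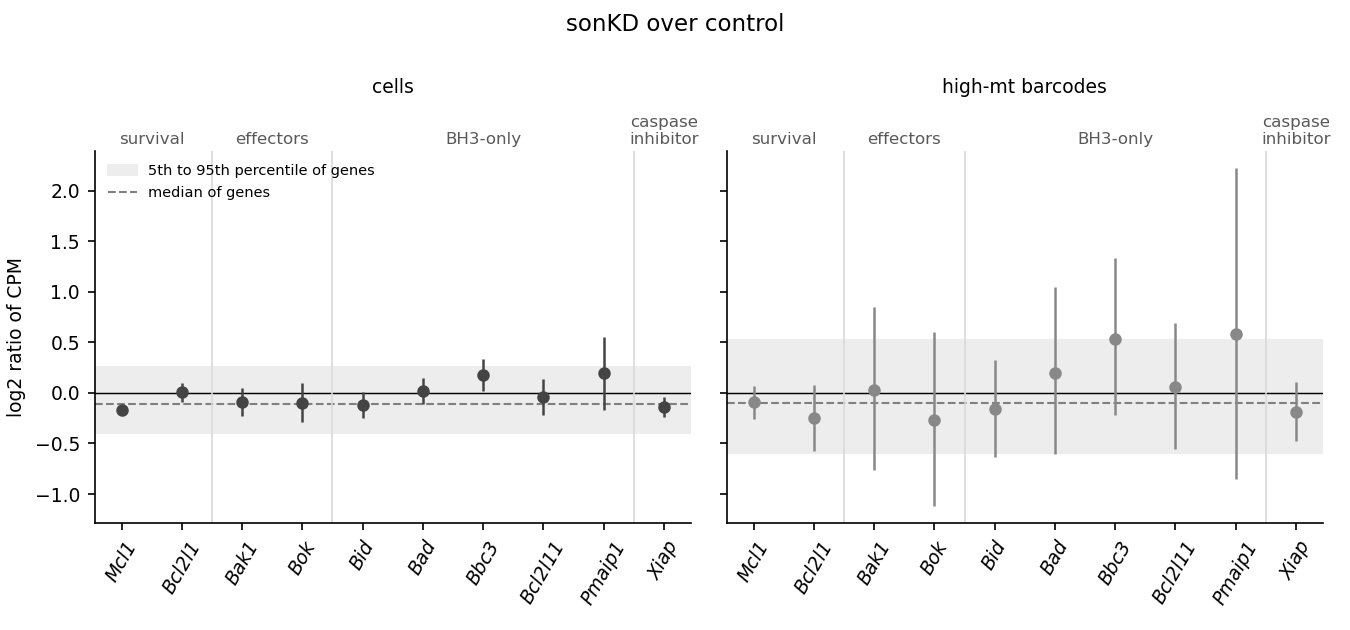
Log2 ratio of CPM, sonKD over control, for each gene in cells (left) and high-mt barcodes (right); bars are exact 95% counting intervals, the grey band spans the 5th to 95th percentile of 8157 genes and the dashed line is their median. In cells the 10 genes lie between -0.17 and 0.19, inside the band, and in high-mt barcodes every interval includes 0.

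A second view counted cells with at least 1 UMI after thinning each cell to 2000 nuclear-encoded UMIs, since sonKD cells were deeper. Mcl1 was seen in 38.1% (36.8 to 39.5) of thinned control cells and 33.8% (32.1 to 35.6) of thinned sonKD cells, a difference of -4.27 points (-6.51 to -2.02). The unthinned shares, 80.2% and 85.0%, had the opposite order. Bcl2l1 was seen in 9.30% and 9.96%, Xiap in 9.02% and 9.01%, Bbc3 in 3.48% and 4.32%, and Pmaip1 in 0.70% and 1.10% of thinned cells, all with intervals of the difference that included 0. Mcl1 was the only one of the 10 whose interval excluded 0, and it kept that sign and an interval that excluded 0 at 1000 and 4000 UMIs and in cells of at least 5000 UMIs. Mcl1 also had the most UMIs of the 10, and no such share over all genes is given here. Thinned shares rest on the same nuclear-encoded scale as CPM, on which 26.0% of the 8157 genes had a ratio above 0. At 4000 UMIs Bbc3 was seen in 6.81% and 8.22% of cells, a difference of 1.41 points (0.13 to 2.74), and Pmaip1 in 1.22% and 1.88%, a difference of 0.66 points (0.05 to 1.33). At 1000 UMIs the intervals of both included 0, with Pmaip1 at -0.13 points. There Bcl2l1 differed by 1.40 points (0.34 to 2.50) and Bad by -1.04 points (-1.78 to -0.26). In cells of at least 5000 UMIs only Bbc3 joined Mcl1, at 1.16 points (0.18 to 2.19). Apart from Mcl1, the genes whose interval excluded 0 thus changed with the depth.

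Cell-to-cell spread was read from the thinned counts. In thinned control cells the variance over the mean, which is 1 for Poisson counts, ran from 0.97 for Bid to 1.10 for Bcl2l1 over the 9 genes with at least 0.02 UMIs per thinned cell, with a median of 1.02. In sonKD cells Mcl1 was at 1.06, as in control. At so few UMIs per cell this ratio stays near 1 even where levels differ between cells.

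The next comparison set high-mt barcodes against cells of the same library. The median gene was higher there by 0.33 in control and 0.34 in sonKD, and over the 8157 genes the ratio went with gene length, with Spearman rho of 0.55 and 0.43 across genes, which are not independent replicates. Malat1, a nuclear RNA, had ratios of 2.498 and 2.253, and the ribosomal protein share of nuclear UMIs was 21.5% and 25.0% in cells against 12.8% and 15.98% in high-mt barcodes. The part of RNA composition in the values below was not tested, and depth was matched only in the small sets given beside them.

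In control, 3 of the 10 genes were higher by the fold in high-mt barcodes (background 50.5%) and 3 lower (background 16.6%). In sonKD, 4 were higher (51.3%) and 2 lower (12.1%). Of the 4, Pmaip1 was under the minimum of 10 CPM that the background genes met, which left 3. Counts over so few genes were not read as a difference from the background. The split depended on scaling. With edgeR's TMM factors, which shift all ratios by -0.58 and -0.55, the split became 1 higher and 7 lower in control and 1 higher and 5 lower in sonKD. Centred on the median gene it was 1 higher and 4 lower in each library. With all UMIs as the denominator it was 2 and 3 in control and 1 and 4 in sonKD, and without ribosomal protein genes 2 and 3 in each, as the median of all genes moved to 0.15 and 0.11 and to 0.18 and 0.17.

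Xiap had the highest ratio of the 10 in both libraries. It was at 97.6 CPM (83.2 to 114) in control and 85.8 CPM (75.6 to 96.9) in sonKD high-mt barcodes, about 2.03 times (1.72 to 2.38) and 1.96 times (1.71 to 2.24) its level in cells. The intervals of high-mt barcodes and cells did not overlap in either library. Its log2 ratios of 1.02 and 0.97 both lay at the 92.0th percentile of genes, and under the alternatives they ran from 0.44 to 1.23 and from 0.42 to 1.34. With genes split by gene length into 10 classes of equal size, its class had medians of 0.45 and 0.42, with upper quartiles of 0.72 and 0.69.

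Bad and Bak1 had the lowest ratios. Bad was at 11.9 CPM (7.27 to 18.4; 20 UMIs) in control and 13.7 CPM (9.82 to 18.6; 41 UMIs) in sonKD high-mt barcodes, log2 ratios of -1.30 (-2.02 to -0.67) and -1.12 (-1.61 to -0.67). Bak1 was at 13.1 CPM (8.21 to 19.8) and 13.4 CPM (9.54 to 18.2), log2 ratios of -0.97 (-1.65 to -0.37) and -0.85 (-1.35 to -0.40). Both lay under the 2nd percentile of genes in both libraries, and below the lower quartile of -0.32 and -0.22 of their length class.

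At matched depth the ratios of both were closer to 0 and imprecise. Within barcodes of 2500 to under 4000 UMIs (268 control and 109 sonKD cells against 563 and 842 high-mt barcodes), Bad was at -0.70 (-1.81 to 0.42) in control and -0.16 (-1.54 to 1.57) in sonKD, and Bak1 at -0.17 and -0.11, with intervals that included 0. The cells behind these values held 15 and 5 UMIs of Bad and 13 and 4 of Bak1. At that matched depth Xiap was still higher, by 0.64 (0.17 to 1.14) and 0.80 (0.08 to 1.61), with 51 and 17 UMIs in the cells. The median gene was at 0.28 in control and 0.09 in sonKD there. At this depth 60.4% and 40.8% of genes were past the fold in either direction.

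Bcl2l1, Bcl2l11 and Bid lay within the quartiles of their length class. Bcl2l1 was at 77.4 CPM (64.7 to 91.9) and 65.1 CPM (56.3 to 74.9), log2 ratios of 0.62 (0.35 to 0.87) and 0.36 (0.14 to 0.58) against class medians of 0.59 and 0.51. Bcl2l11, at 0.44 (-0.09 to 0.93) and 0.54 (0.14 to 0.92), had class medians of 0.45 and 0.42, and Bid, at 0.26 and 0.22, had 0.25 and 0.29. Mcl1, one of the shortest genes, was at 0.21 (0.08 to 0.35) and 0.29 (0.18 to 0.39), above the upper quartiles of 0.08 and 0.20 of its class. Bbc3 was at -0.47 (-1.18 to 0.15) and -0.12 (-0.55 to 0.28), Bok at -0.11 and -0.29, and Pmaip1 at 0.03 and 0.41, all with intervals that included 0. Bbc3 in control and Bok in sonKD lay below the lower quartiles of their class, -0.32 and -0.22, and Pmaip1 in sonKD lay above the upper quartile of 0.34. At the matched depth of 2500 to under 4000 UMIs Bbc3 was lower, at -1.13 (-2.08 to -0.20; 19 against 24 UMIs) in control and -1.02 (-2.03 to 0.10; 35 against 11 UMIs) in sonKD. Mcl1 was at 0.14 (-0.11 to 0.38) in control and -0.03 (-0.36 to 0.32) in sonKD at that depth, and both intervals included 0. Under TMM factors the ratios of Mcl1 (-0.37 and -0.26), Bid (-0.32 and -0.33), Bcl2l11 and Pmaip1 turned negative in both libraries, and that of Bcl2l1 in sonKD, so the direction of these 5 genes depends on the scaling.

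**Figure D3:**
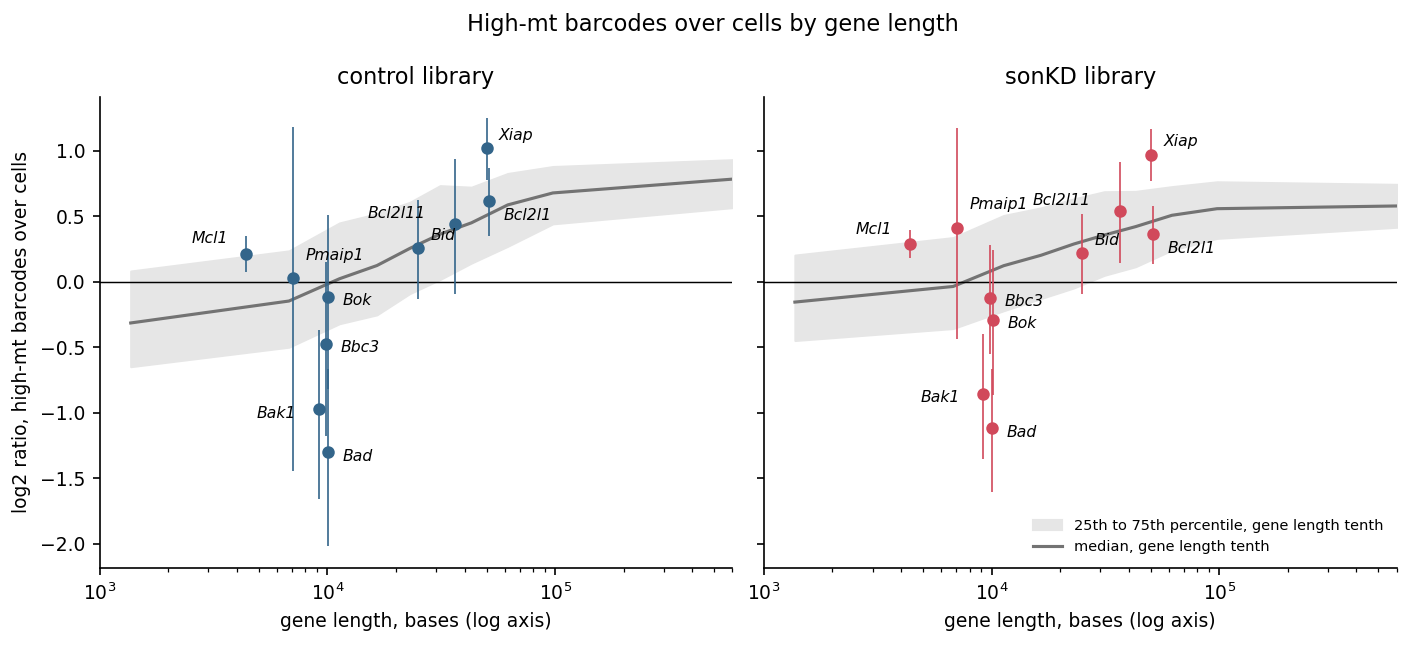
Log2 ratio of high-mt barcodes over cells against gene length in bases (log axis), in control (left) and sonKD (right); points are the 10 genes with exact 95% counting intervals, and the line and band are the median and quartiles of 8157 genes in 10 classes of gene length. In both libraries, without matching of depth, Xiap and Mcl1 lie above the band, and Bad and Bak1 lie below it.

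By role, the high-mt barcodes held a larger share of Xiap and smaller shares of effectors and BH3-only genes among the 10 genes' UMIs, which needs no scaling but is not free of depth. Xiap gave 17.1% against 10.1% in control, a difference of 7.07 points (4.69 to 9.64), and 16.1% against 9.82% in sonKD, 6.31 points (4.46 to 8.27). The effector share was 4.49% against 8.20% and 4.46% against 8.26%, differences of -3.71 points (-4.99 to -2.14) and -3.80 points (-4.87 to -2.58). The BH3-only share was 15.0% against 20.1% and 17.3% against 21.7%, and the survival share differed by less than its interval in both libraries. At the matched depth, chosen after seeing the data, the Xiap share was still larger, by 4.88 points (0.51 to 8.97) in control and 7.02 points (1.09 to 11.7) in sonKD. The effector share there was 4.60% against 4.10% in control and 3.92% against 6.47% in sonKD, and both intervals of the difference included 0. The BH3-only share differed by -6.05 points (-10.9 to -1.42) in control and by -0.20 points (-7.26 to 5.88) in sonKD.

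Across 6 ranges of mt- share the genes fell into different courses, given here as levels for the ranges of 2 to 4, 4 to 6, 6 to 10 and 10 to 20%. Xiap was at 43.7, 54.8, 68.3 and 96.8 CPM in control against 39.2, 46.1, 59.9 and 78.1 CPM in sonKD, each range above the one before it. Bcl2l1 was at 44.6, 57.9, 73.4 and 83.7 CPM in control against 44.7, 54.6, 69.0 and 71.7 CPM in sonKD. Over 20% Bcl2l1 was lower again in sonKD, at 47.6 CPM (33.8 to 65.1), and in control it had 2 UMIs there, so its course had no single direction. For both genes the levels already differed between ranges within the cells, below the limit of 10%.

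Bbc3 had its highest level just under that limit. It was at 14.9, 21.05, 27.2 and 12.4 CPM in control against 16.03, 21.8, 31.7 and 18.8 CPM in sonKD. Its cells with 6 to 10% mt- UMIs (69 and 90 UMIs of Bbc3) had intervals of 21.2 to 34.5 and 25.5 to 39.0 CPM, against 7.48 to 19.4 and 13.5 to 25.6 CPM from 10 to 20%. In control these intervals did not overlap, and in sonKD they overlapped by a small margin.

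Bak1 was at 27.4, 23.8, 18.2 and 11.1 CPM in control against 25.2, 24.5, 17.3 and 14.2 CPM in sonKD, lower in each range than in the one before. Bad was at 29.3, 30.4, 25.3 and 11.1 CPM in control against 29.8, 30.6, 26.8 and 15.6 CPM in sonKD, level up to 6% and lower from 10%. Median depth went from 8153 UMIs in the 2 to 4% range to 2990.5 UMIs in the 10 to 20% range in control, and its part in these courses was not tested beyond the matched-depth values above. The lowest range held 22 barcodes in sonKD and the highest held 66 in control, so their values are imprecise.

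**Figure D4:**
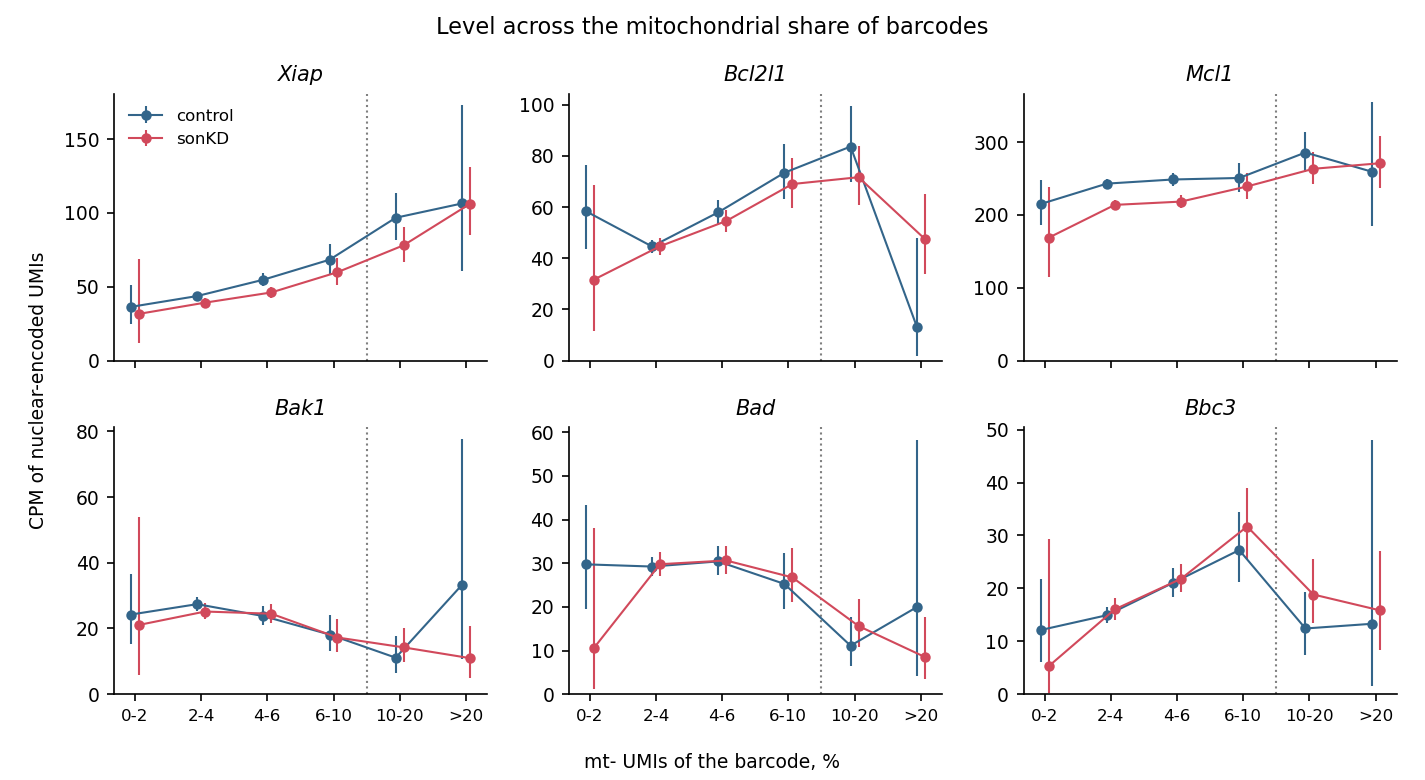
Level in CPM of nuclear-encoded UMIs of 6 of the genes in 6 ranges of mt- share (%) of barcodes with at least 2500 UMIs, in control (blue) and sonKD (red), with exact Poisson 95% intervals; the dotted line is the limit of 10% between cells and high-mt barcodes. Xiap increases along the ranges in both libraries, and Bbc3 has its highest level at 6 to 10% (27.2 and 31.7 CPM).

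Between the libraries, the high-mt barcodes gave the same question as the cells on fewer counts. By the fold, 2 of the 10 genes were higher in sonKD (background 11.4%) and 0 lower (23.3%). These were Bbc3, at 12.5 CPM (21 UMIs) in control and 18.03 CPM (54 UMIs) in sonKD, and Pmaip1, at 3.57 CPM (6 UMIs) and 5.34 CPM (16 UMIs). Both also had the highest ratios in cells, though not past the fold there. Their log2 ratios of 0.53 (-0.22 to 1.33) and 0.58 (-0.85 to 2.22) had intervals that included 0. Without the 5% of barcodes with the most UMIs, Bbc3 came to 0.29, no longer past the fold, and Bad to 0.36, past it. Pmaip1 was under the minimum of 10 CPM that the background genes met, which left Bbc3 alone to set beside the background. Mcl1 was at 283 and 265 CPM there, a ratio of -0.09 (-0.26 to 0.07). For 0 of the 10 genes did the interval of the difference between the ratio in high-mt barcodes and that in cells exclude 0. Son was at -0.64 (-0.80 to -0.48) in these barcodes. TMM factors moved all these ratios by 0.11.

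Bbc3 and Pmaip1 are textbook targets of p53, so their levels were followed across cells ranked by the summed UMIs of 30 other p53 targets per thinned cell. The ranges, 0 to 3, 4 to 5, 6, and 7 or more UMIs, came from a continuous sum and are no cell types. The sum rests largely on Rps27l (724 CPM in control and 975 CPM in sonKD cells) and Bax (577 and 511 CPM). The next most abundant of the 30 was Mdm2, at 146 and 133 CPM. Rps27l and Bax share part of their 3' end sequence with other annotated genes, and Rps27l differed between the libraries. In control, Bbc3 was at 10.5, 15.4, 22.9 and 30.1 CPM from the lowest to the highest range, and in sonKD at 13.0, 16.1, 27.0 and 28.6 CPM. Highest over lowest, its log2 ratio was 1.52 (1.23 to 1.82) in control and 1.13 (0.81 to 1.46) in sonKD. Pmaip1 was at 2.28, 2.71, 2.15 and 7.66 CPM in control against 1.67, 3.75, 5.72 and 6.40 CPM in sonKD, with ratios of 1.75 (1.12 to 2.39) and 1.94 (1.10 to 2.85). Both genes lay above the 99th percentile of genes in both libraries, beside Cdkn1a (1.55 and 1.52), which was itself in the sum.

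In control these 2 were the only ones of the 10 past the fold upwards (background 9.21%), and 0 were past it downwards (4.12%). In sonKD 4 were higher (11.2%) and 1 lower (4.18%). The higher genes include Pmaip1 in both libraries, which was under the minimum of 10 CPM that the background genes met. Without it, 1 was higher in control and 3 in sonKD. Bcl2l11, whose regulation is usually assigned to FOXO factors, was at 11.3, 12.9, 14.6 and 22.2 CPM in sonKD, a ratio of 0.98 (0.62 to 1.34), and at 14.6, 15.4, 15.0 and 16.7 CPM in control, a ratio of 0.19 (-0.13 to 0.50). The difference between the libraries was 0.79 (0.32 to 1.28), was 0.96 (0.24 to 1.69) within cells of 2 to 4% mt- UMIs, and was 0.44 (-0.04 to 0.92) with cells thinned to 4000 UMIs, where the interval included 0. Xiap (0.40, 0.20 to 0.61) and Bok (-0.46, -0.89 to -0.04) were the others past the fold in sonKD, with control values of 0.13 and -0.19. Bad differed between the libraries, -0.22 in control and 0.18 in sonKD, by 0.40 (0.04 to 0.76), and by -0.04 (-0.55 to 0.48) within cells of 2 to 4% mt- UMIs. Within those cells neither Xiap nor Bok was past the fold, and Bbc3, Pmaip1 and Bcl2l11 remained so.

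The survival genes had smaller ratios along this axis. Mcl1 was at 242, 249, 236 and 245 CPM in control against 212, 215, 220 and 227 CPM in sonKD, and Bcl2l1 had ratios of 0.20 (0.03 to 0.37) and 0.27 (0.07 to 0.46), the latter 0.40 (0.21 to 0.60) with cells thinned to 4000 UMIs. Cells of the highest range were shallower than those of the lowest, with medians of 6988.5 against 8075 UMIs in control and 10517 against 11992 in sonKD, and had more mt- UMIs, 4.29% against 3.44% and 4.74% against 3.83%. The ratios of Bbc3 stayed past the fold within cells of 2 to 4% mt- UMIs, at 1.32 (0.92 to 1.72) and 0.65 (0.12 to 1.16), a difference between the libraries of -0.68 (-1.33 to -0.02) that was -0.39 (-0.83 to 0.05) over all cells.

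**Figure D5:**
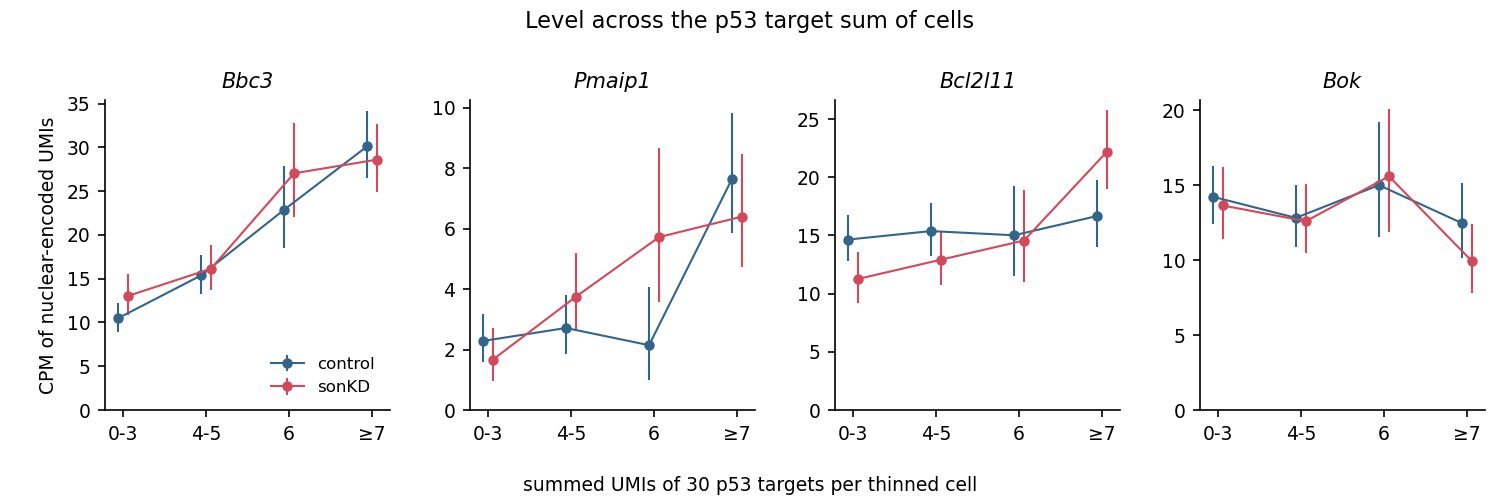
Level in CPM of nuclear-encoded UMIs of Bbc3, Pmaip1, Bcl2l11 and Bok in cells of 4 ranges of the summed UMIs of 30 p53 targets after thinning, in control (blue) and sonKD (red), with exact Poisson 95% intervals. Bbc3 is highest in the top range in both libraries (30.1 and 28.6 CPM), while Bcl2l11 is higher there in sonKD (22.2 CPM) than in control (16.7 CPM).

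The rest of the pathway was read from a list of 44 further apoptosis genes, of which 25 had at least 10 CPM. In sonKD over control cells 0 of the 25 were higher by the fold (background 3.56%) and 4 lower (9.64%), with a median of -0.15 beside -0.11 for all genes. Counts over so few genes were not read as a difference from the background. The 4 were Cycs, the gene of cytochrome c (68.1 and 42.9 CPM, ratio -0.67, -0.76 to -0.57), Diablo, whose product SMAC neutralises XIAP (38.0 and 25.4 CPM, -0.58, -0.71 to -0.45), Parp1, whose DNA repair product is a classic caspase substrate (713 and 503 CPM, -0.50, -0.53 to -0.48), and Birc5, the gene of survivin, which also serves in mitosis (298 and 231 CPM, -0.37, -0.41 to -0.33). Cycs and Diablo encode proteins that leave the mitochondrion during apoptosis.

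Bax, the main soluble effector and more abundant than any of the 10 genes, was at 577 and 511 CPM (-0.18, -0.21 to -0.15). Apaf1 (-0.19, -0.33 to -0.05) and Casp9 (-0.17, -0.45 to 0.11), which form the apoptosome with cytochrome c, also lay within the fold. Both intervals reached past the fold downwards. Casp9, at 6.71 and 5.96 CPM, was under the minimum of 10 CPM and so not among the 25. Vdac1, a channel of the outer membrane, was the highest of the 25 at 0.18, followed by Trp53, the gene of p53 itself, at 0.10 (0.07 to 0.14) and Bnip3l, a mitophagy receptor, at 0.07. The survival genes Bcl2 (78 and 42 UMIs; -0.53, -1.11 to 0.02) and Bcl2l2 (62 and 43 UMIs; -0.17) were under 2 CPM in cells of both libraries, far below Mcl1 and Bcl2l1.

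Of 30 p53 targets, 25 had at least 10 CPM. Of these, 2 were higher (background 3.56%) and 2 lower (9.64%) by the fold, with a median of 0.04 beside -0.11 for all genes. Perp (0.47, 0.37 to 0.58) and Rps27l (0.43, 0.41 to 0.45) were higher, the latter sharing 3' end sequence with other annotated genes. Fdxr (-0.49) and Sesn2 (-0.35) were lower. Cdkn1a (-0.06, -0.15 to 0.04) and Mdm2 (-0.13, -0.19 to -0.07), the usual readouts of p53 activity, lay within the fold.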

How the data were processed

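Both deposited files give unnormalized UMI counts for all listed barcodes, produced with Cell Ranger 7.1.0 per the file headers; the submitters' processing notes name the build mm10. The annotation, the treatment of intronic reads and the use of strand are not given in the sources used here. The labels name different NextSeq models. Groups came from sample titles.

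UMIs were summed per set of barcodes and divided by all UMIs except those of mt- genes. Intervals at 95% are exact Poisson for levels, exact conditional binomial for ratios (a count under 3 was set to 3) and exact binomial (Clopper-Pearson) for shares; those of differences combine the bounds as a root sum of squares. They cover counting error only. With 1 library per group there is no p-value. Thinning drew UMIs without replacement; 11 control and 74 sonKD high-mt barcodes were too shallow. No doublet caller was run; an alternative left out the 5% of barcodes with the most UMIs. Gene positions come from GENCODE M21. Ratios, intervals and thinning were tested on simulated data. Python 3.11.15, numpy 2.4.6, scipy 1.17.1, pandas 2.3.3 and edgeR 4.0.16 (TMM factors only) were used.

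The genes and lists were chosen with earlier results of these data known. All 10 genes are named in each comparison; of the rest Son, Malat1, 10 apoptosis genes (1 is not reported here), Cdkn1a and Mdm2 whatever their values, the 3 highest and 3 lowest of the apoptosis list and the 2 highest and 2 lowest of the p53 list. Genes alike across mt- ranges were to be named where a gene had 100 UMIs in each of 12 ranges, which 0 of the 10 had.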

Additional observations from a re-analysis of the deposited data

How the results depend on the processing

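No paired analysis was possible because each group holds 1 library. Over 334 values of the 10 genes under alternatives, 262 stayed within their counting interval, 61 moved by more than it and 11 changed sign after having been past the fold. Staying within the interval does not mean that the call by the fold was kept. Bcl2l11 in high-mt barcodes over cells in control went from 0.44 to 0.26 with all UMIs as the denominator, which is no longer past the fold. In sonKD over control cells, 0 genes were past the fold under each planned setting, and 5 in the 268 and 109 cells of 2500 to under 4000 UMIs, a range added after seeing the data. High-mt barcodes over cells depended on scaling. Under TMM factors, Mcl1 came to -0.37 and Bid to -0.32 in control, from 0.21 and 0.26, and to -0.26 and -0.33 in sonKD, from 0.29 and 0.22. Bcl2l11 came to -0.14 in control, and in sonKD Bcl2l1 to -0.19, Bcl2l11 to -0.011 and Pmaip1 to -0.14. With at least 5000 UMIs, which left 15 and 81 high-mt barcodes, Bad came to 0.82 in control, and in sonKD Bcl2l1 to -0.15, Bak1 to 0.10 and Bcl2l11 to -0.059. With mt- limits of 5% and 20%, Bak1 came to 0.32 in control, on 66 high-mt barcodes, and 3 genes were past the fold in place of 6. At 2500 to under 4000 UMIs in sonKD, Bcl2l1 came to -0.21 and Bcl2l11 to -0.14. At a minimum of 50 CPM only Mcl1 and Bcl2l1 of the 10 were left, with 1 past the fold over cells in control, 1 in sonKD, and 0 between the libraries' high-mt barcodes. The last count was also 0, in place of 2, when the interval had to exclude 0. Shares of cells with a UMI differed for 3 genes at 1000 UMIs, 3 at 4000 and 2 from 5000 UMIs, in place of 1. Of the p53 list, 1 gene was past the fold at 50 CPM in place of 4. Across p53 target ranges in sonKD, 3 genes were past the fold within 2 to 4% mt- UMIs in place of 5. Except for counts set by fewer genes or barcodes, the cause was not tested. A member with 3 UMIs or fewer on either side was given no value. Depth limits Pmaip1, with 6 and 16 UMIs in high-mt barcodes.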
